A study of Mus musculus with 10 samples.

Results

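Activated_2 is one of 8 fine states into which the authors' annotation divides the macrophages of the mouse hippocampus. The state was taken as every barcode whose cell class is Macrophage and whose fine macrophage state is Activated_2, which gave 537 cells. They make up 18.6% of the 2886 macrophages that carry a state and 0.779% of the 68914 annotated cells. All 537 lie in cluster 32 of the whole annotation and in macrophage cluster 7, which holds no other cell, and all carry the coarse state Activated together with Activated_1 and Activated_3. None carries a microglial state.

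The cells come from 10 male wild-type C57BL/6 mice, 11 weeks old, whose hippocampi on both sides were injected 3 days earlier. The injections held vehicle (4 mice), full-length neurofilament light chain at 1 mg/ml (FL-NfL, 3 mice) or the coiled-coil part of that protein at 1 mg/ml (CC-NfL, 3 mice). Neurofilament light chain is a filament protein of axons that appears outside neurons when axons are damaged. The study asked how brain cells respond to it when it is supplied from outside. No mouse received another protein and none was left uninjected, so a response to NfL cannot be told apart from a response to any injected protein, and the needle injury is part of every group. Each library is 1 mouse, and the labels place 2 vehicle, 2 FL-NfL and 2 CC-NfL libraries in batch b1 and the other 4 libraries in batch b2. Libraries held 3150 to 14141 annotated cells and 52 to 819 macrophages with a state.

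Macrophages take up debris and present antigen. In the brain they include resident cells of the meninges, vessels and choroid plexus as well as cells that arrive from blood after injury, and their activated forms are commonly described by genes of phagocytosis, lipid handling and repair. Arg1 encodes arginase 1, an enzyme that breaks down arginine and marks wound-healing macrophages, Gpnmb encodes a membrane glycoprotein of lipid-laden phagocytes, and Spp1 encodes the secreted protein osteopontin. These 3 genes are the markers linked to this state. The deposited table holds names and map positions and no gene value, so neither these markers nor those of other cell types could be read, and the state is described under the name the annotation gives it.

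Nearly all Activated_2 macrophages came from mice that received NfL. Vehicle libraries gave 7 of the 537 cells (1.30%), FL-NfL libraries 267 (49.7%) and CC-NfL libraries 263 (49.0%). Vehicle libraries also held few macrophages, 355 of the 2886 with a state. They gave 11 of 646 Activated_1 and 21 of 564 Activated_3 cells, so this origin is not particular to Activated_2. The Activated_2 cells were also spread unevenly over mice. FL-NfL library 3 and CC-NfL library 3, the NfL libraries of batch b2, gave 397 of them (73.9%). These libraries held 793 and 819 of the 2886 macrophages with a state. They gave 197 and 301 of 646 Activated_1 cells, and 187 and 136 of 564 Activated_3 cells. Because of this spread, group levels below are shares within a library, averaged with equal weight over libraries. Values pooled over cells are named as such. Of the 537 cells, 7 have a barcode sequence that is also annotated in another library, in no case as a macrophage, and no barcode occurs in more than 1 Activated_2 cell.

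As a share of the macrophages with a state, Activated_2 rose after either protein. In the vehicle libraries numbered 1 to 4 it made up 0%, 3.85%, 3.36% and 0% of macrophages, from 0 of 62, 2 of 52, 5 of 149 and 0 of 92 cells. Allowing 3 cells for a count of 0 gives shares of up to 4.84% in library 1 and 3.26% in library 4. The exact 95% intervals are wider and reach 5.78% and 3.93%. In the FL-NfL libraries it made up 19.1%, 7.51% and 22.4%, from 76 of 398, 13 of 173 and 178 of 793 cells. In the CC-NfL libraries the shares were 17.9%, 11.0% and 26.7%, from 15 of 84, 29 of 264 and 219 of 819 cells. All 6 NfL libraries lay above all 4 vehicle libraries, and the FL-NfL and CC-NfL ranges overlapped widely.

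**Figure D1:**
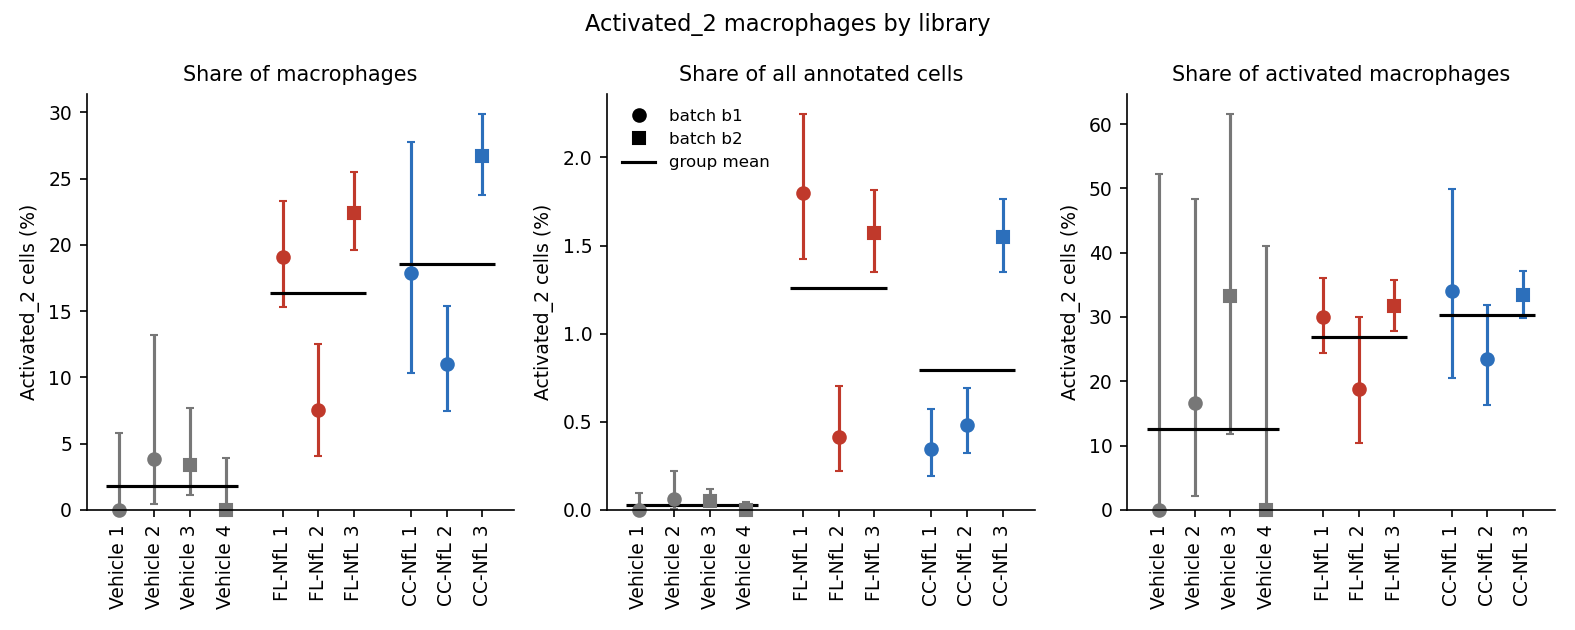
Activated_2 cells in each library as a percentage of macrophages with a state (left), of all annotated cells (middle) and of macrophages in any activated state (right). Points are libraries, with circles for batch b1 and squares for b2, error bars are exact 95% binomial intervals that cover counting error only, and lines are group means. In the left and middle panels the 6 NfL libraries lie above the 4 vehicle libraries, while in the right panel vehicle library 3 at 33.3% lies among the NfL libraries.

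Mean shares of macrophages were 1.80% ± 2.09 in vehicle mice (SD, n = 4), 16.4% ± 7.83 with FL-NfL (SD, n = 3) and 18.5% ± 7.90 with CC-NfL (SD, n = 3). For FL-NfL against vehicle the log2 odds ratio was 3.48 (SE 0.90, 95% interval 1.41 to 5.55, adjusted p = 0.00900 by limma's moderated test with Benjamini-Hochberg adjustment over 6 states). For CC-NfL against vehicle it was 3.75 (SE 0.90, 95% interval 1.69 to 5.82, adjusted p = 0.00584 by limma), and for both proteins together 3.62 (SE 0.76, adjusted p = 0.00270). These contrasts share the 4 vehicle libraries. Most states moved in this fit: limma called 5 of 6 states (83.3%) after FL-NfL, 5 of 6 (83.3%) after CC-NfL and 6 of 6 (100%) for both together, so a call for Activated_2 is not particular to it. Log2 odds ratios for FL-NfL and CC-NfL were 2.92 and 3.21 for Activated_1, 2.06 and 1.68 for Activated_3, and 1.42 and 1.24 for MHC2_high_2, the last value short of the threshold (limma adjusted p = 0.05004). They were -2.40 and -2.14 for MHC2_low, and -1.99 and -2.53 for MHC2_high_1, of which the first did not pass. The states named Granulocytes and Proliferating, with mean shares of 6.13% and 2.66% in vehicle mice, averaged under 10 cells over all libraries and were not tested. In vehicle libraries they held 21 and 7 cells, against 7 for Activated_2. Activated_1, Activated_2, Activated_3 and MHC2_high_2 reached the mean of 10 only through the NfL libraries. The shares of states called therefore rest on a set that favours states that rose. Shares within macrophages sum to a fixed total, and limma pools the spread over states that are not independent, so these p-values may be too small.

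Two-sided exact permutation of the percentages gave p = 0.0286 for each protein against vehicle, the smallest that 4 against 3 libraries allow (0.0429 after adjustment over 6 states). Inside batches exact permutation gave p = 0.0556 for each, again the smallest possible, and neither passed (0.0667 for FL-NfL and 0.0833 for CC-NfL after adjustment). For both proteins together it gave p = 0.00952 (0.0143 after adjustment), and p = 0.0222 with exact permutation inside batches (0.0333 after adjustment). Batch b1 gave mean shares of 1.92% (vehicle), 13.3% (FL-NfL) and 14.4% (CC-NfL). Batch b2 gave 1.68% (vehicle), 22.4% (FL-NfL) and 26.7% (CC-NfL), the NfL values from 1 library each. The effect of NfL differed between batches by 1.56 on the log2 odds scale (b2 minus b1, SE 1.53, 95% interval -2.001 to 5.11, limma adjusted p = 0.600), so a difference between batches was not resolved in either direction. The call for FL-NfL ended without FL-NfL replicate 3 (log2 odds ratio 3.15, adjusted p = 0.0626). In batch b1 alone the calls for FL-NfL (2.83, adjusted p = 0.0800) and for CC-NfL (3.07, adjusted p = 0.0990) ended, while that for both proteins stayed (2.95, adjusted p = 0.0445), all by limma. Without the 3 libraries numbered 1 all 3 calls ended, with log2 odds ratios of 2.90 (FL-NfL, adjusted p = 0.127), 3.35 (CC-NfL, adjusted p = 0.0796) and 3.12 (both, adjusted p = 0.0619) in limma.

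The spread between mice of the same group was wider than counting error. The SD of 7.83 percentage points after FL-NfL compares with 2.24 expected from counting alone, and that of 7.90 after CC-NfL with 3.14. In the quasi-binomial model, where a dispersion of 1 would mean counting error alone, the dispersion of Activated_2 was 4.43. Ordered by share, the NfL libraries ran CC-NfL 3, FL-NfL 3, FL-NfL 1, CC-NfL 1, CC-NfL 2 and FL-NfL 2. Exact 95% intervals of neighbours in this order overlapped, from 23.7% to 29.9% for CC-NfL 3 down to 4.06% to 12.5% for FL-NfL 2. Both libraries at the top of the order belong to batch b2 and hold the most macrophages (819 and 793). The part of batch or of cell number in this order was not tested.

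**Figure D2:**
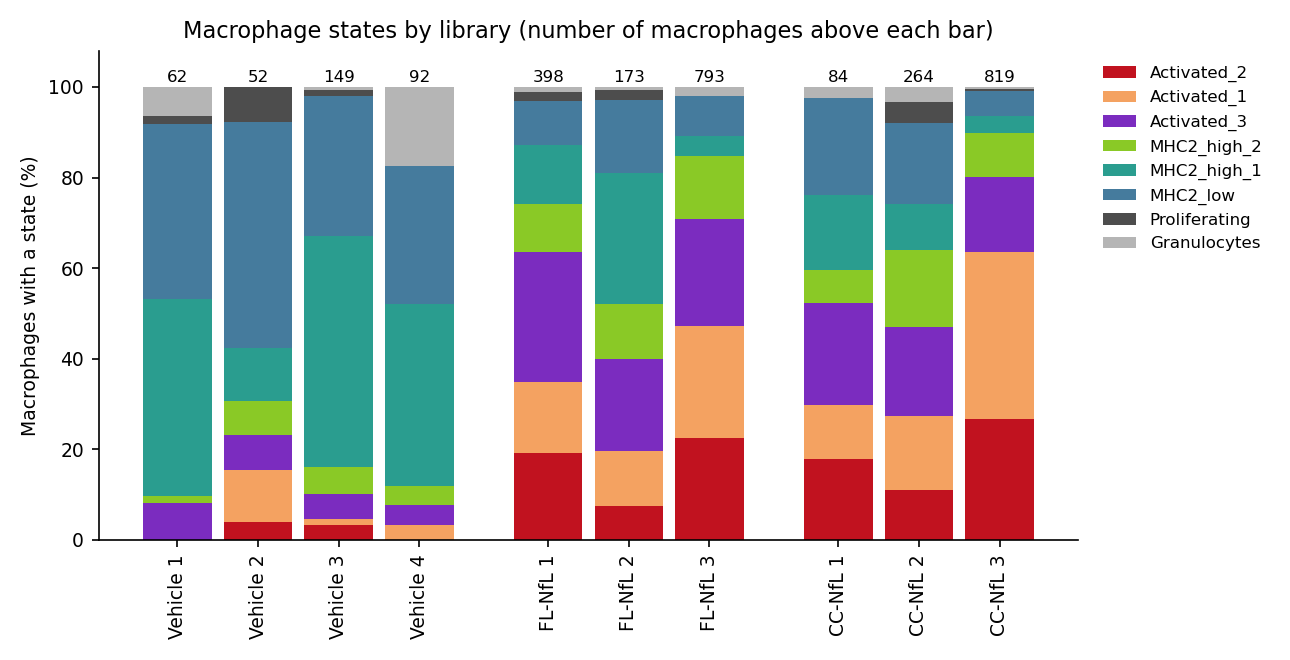
Macrophages of each library by fine state, as stacked percentages of the macrophages that carry a state, with their number above each bar. Activated_2 is the lowest segment of each bar, absent in vehicle libraries 1 and 4 and between 7.51% and 26.7% in the 6 NfL libraries.

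A share of macrophages can rise because other states shrink, so the state was also set against all annotated cells. This second share also moves with macrophages as a whole. Macrophages made up a mean of 1.44% of annotated cells in vehicle mice, 7.36% with FL-NfL and 4.05% with CC-NfL. Activated states together made up a mean of 12.2%, 58.1% and 59.8% of macrophages in the same order. Activated_2 made up 0%, 0.0608%, 0.0512% and 0% of annotated cells in the 4 vehicle libraries. Allowing 3 cells for each of the 2 counts of 0 gives upper limits of 0.0774% and 0.0341%. The state made up 1.80%, 0.413% and 1.57% in the FL-NfL libraries and 0.347%, 0.481% and 1.55% in the CC-NfL libraries. The highest, 1.80%, is from FL-NfL library 1, where 10506 of 14726 barcodes had no annotation. Again every NfL library lay above every vehicle library. Group means were 0.0280% ± 0.0326 in vehicle mice (SD, n = 4), 1.26% ± 0.744 with FL-NfL (SD, n = 3) and 0.792% ± 0.658 with CC-NfL (SD, n = 3). Against cell classes that do not hold the state, the counts were 0.783 ± 0.905, 43.2 ± 28.3 and 25.5 ± 23.8 Activated_2 cells per 1000 microglia in the same order of groups. They were 0.450 ± 0.527, 21.0 ± 12.4 and 12.7 ± 10.2 per 1000 non-immune cells.

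The log2 odds ratio among all annotated cells was 5.59 for FL-NfL (SE 1.03, 95% interval 3.23 to 7.95, limma adjusted p = 0.00359 over 21 items). It was 4.86 for CC-NfL (SE 1.03, 95% interval 2.50 to 7.22, limma adjusted p = 0.0136) and 5.22 for both together (SE 0.88, limma adjusted p = 0.00266). The items were 15 cell classes and the 6 most abundant macrophage states, and limma called 5 of 21 (23.8%) after FL-NfL, 4 of 21 (19.0%) after CC-NfL and 5 of 21 (23.8%) for both together. The calls held Activated_2 with Activated_1, Activated_3 and MHC2_high_2, a state named for the antigen-presenting MHC class II molecules, all of them higher, and after FL-NfL and for both together also the class named other immune cells. MHC2_low macrophages, which fell as a share of macrophages, made up 0.550% ± 0.202 of annotated cells in vehicle mice (SD, n = 4), 0.810% ± 0.168 with FL-NfL (SD, n = 3) and 0.507% ± 0.241 with CC-NfL (SD, n = 3). Their log2 odds ratios among all cells were 0.48 (SE 0.36, limma adjusted p = 0.646) and -0.27 (SE 0.36, limma adjusted p = 0.717), and MHC2_high_1 likewise did not pass.

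**Figure D3:**
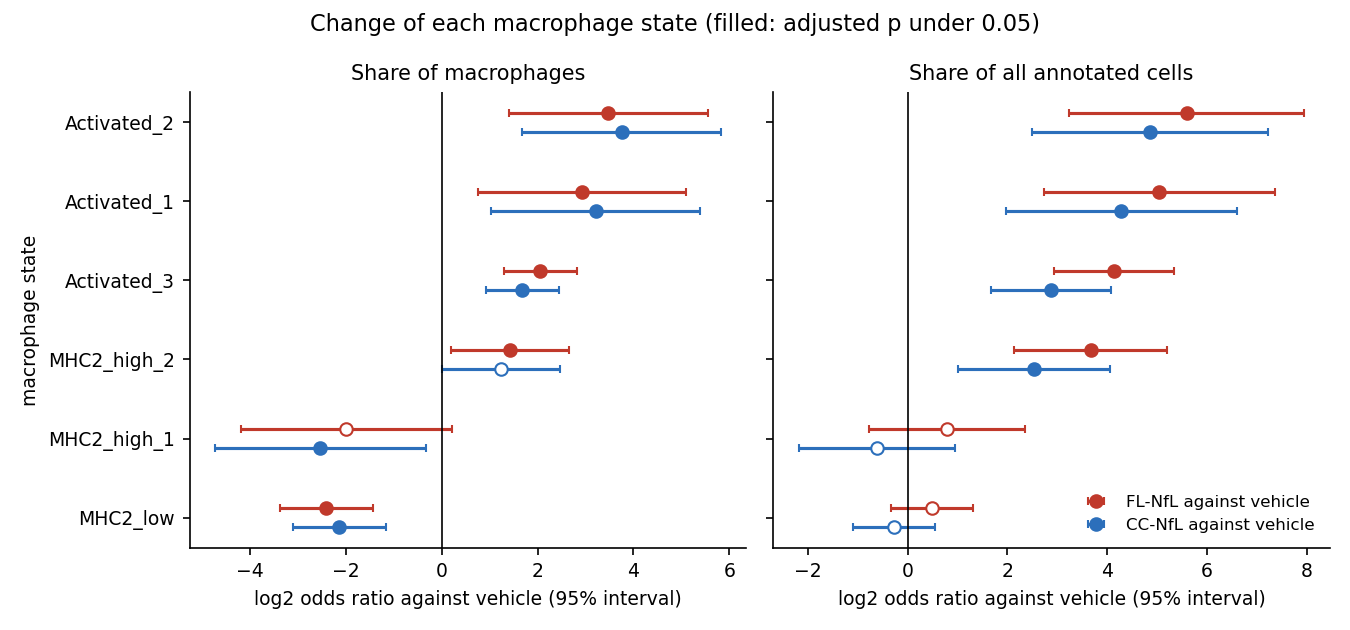
Log2 odds ratios of 6 macrophage states against vehicle with 95% intervals from limma, as a share of macrophages (left) and of all annotated cells (right), for FL-NfL (red) and CC-NfL (blue). Filled points have an adjusted p under 0.05. Activated_2, in the top row, has positive estimates in both panels, while MHC2_low is below 0 on the left and near 0 on the right.

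The call among all cells was less firm for CC-NfL than for the share of macrophages. It ended without vehicle replicate 1 (log2 odds ratio 4.57, adjusted p = 0.0669), without CC-NfL replicate 3 (4.08, adjusted p = 0.141), in batch b1 alone (3.75, adjusted p = 0.273) and without the 3 libraries numbered 1 (4.96, adjusted p = 0.0672), all by limma. For FL-NfL it ended without the 3 libraries numbered 1 (4.88, adjusted p = 0.0718), and with the quasi-binomial model the calls of FL-NfL, CC-NfL and both together ended (adjusted p = 0.102, 0.0824 and 0.101). Exact permutation gave p = 0.0286 for each protein (0.0429 after adjustment over 6 macrophage states) and p = 0.0381 for both together (0.0571 after adjustment). Inside batches it gave p = 0.0556 for each protein, the smallest possible (0.0833 after adjustment), and exact p = 0.0444 for both together (0.0667 after adjustment). Mean shares in b1 were 0.0304% (vehicle), 1.11% (FL-NfL) and 0.414% (CC-NfL), and those in b2 0.0256%, 1.57% and 1.55%. The 2 vehicle libraries without an Activated_2 cell make the size of each log2 odds ratio depend on the number added to the counts: for FL-NfL it was 2.90 of macrophages and 5.01 of all cells with 1 added, and 4.71 and 6.83 with 0.1 added, with adjusted p-values from 0.00287 to 0.0253 in limma.

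FL-NfL and CC-NfL were compared to ask whether the coiled-coil part differs from the whole protein in this state. Both were injected at 1 mg/ml, and equal mass of a part and of the whole need not hold equal numbers of molecules. Protein part and number of molecules therefore cannot be told apart here. The share of macrophages differed by a log2 odds ratio of -0.27 (FL-NfL minus CC-NfL, SE 0.95, 95% interval -2.46 to 1.91, limma adjusted p = 0.782). The share of all annotated cells differed by 0.73 (SE 1.10, 95% interval -1.77 to 3.23, limma adjusted p = 0.815). Differences smaller than these wide intervals could not be resolved with 3 mice a group. Exact permutation gave p = 0.800 and p = 0.400 for the 2 shares, where 3 against 3 libraries cannot go below 0.1. Limma called 0 of 6 states (0%) and 0 of 21 items (0%) between the proteins, of which 0 and 1 had an unadjusted p under 0.05. The quasi-binomial model called 1 state, Activated_3, and 0 items. The sign of the difference in share of macrophages turned when FL-NfL replicate 2 (0.24) or CC-NfL replicate 3 (0.06) was left out.

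The 3 activated states were compared with each other, since all of them rose. Among activated macrophages, Activated_2 made up 0%, 16.7%, 33.3% and 0% in the vehicle libraries, which held only 5, 12, 15 and 7 such cells. It made up 30.04%, 18.8% and 31.7% after FL-NfL and 34.1%, 23.4% and 33.4% after CC-NfL, from 44 to 656 activated cells. Means were 12.5% ± 16.0 (SD, n = 4), 26.9% ± 6.99 (SD, n = 3) and 30.3% ± 5.99 (SD, n = 3), and the vehicle and NfL ranges overlapped. The log2 odds ratio was 1.20 for FL-NfL (SE 0.90, adjusted p = 0.303), 1.45 for CC-NfL (SE 0.90, adjusted p = 0.188) and 1.32 for both (SE 0.77, 95% interval -0.29 to 2.93, adjusted p = 0.152), by limma over 3 states. Limma called 0 of 3 states (0%) against vehicle in these contrasts, with 0, 0 and 1 at an unadjusted p under 0.05, and Activated_2 did not pass in the quasi-binomial model either. A rise of Activated_2 beyond the other activated states was therefore not shown. Without vehicle replicate 2, however, Activated_2 passed for CC-NfL (1.77, adjusted p = 0.0387) and for both together (1.64, adjusted p = 0.0291) in limma.

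Within the NfL libraries the ratio of Activated_2 to its neighbours varied from mouse to mouse. There were 1.21, 0.619 and 0.904 Activated_2 cells per Activated_1 cell in the FL-NfL libraries numbered 1 to 3, and 1.5, 0.674 and 0.728 in the CC-NfL libraries. Per Activated_3 cell there were 0.667, 0.371 and 0.952 after FL-NfL and 0.789, 0.558 and 1.61 after CC-NfL. Of the 6 NfL libraries, CC-NfL library 3 was the only 1 in which Activated_2 outnumbered Activated_3, with 219 against 136 cells.

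On the authors' t-SNE map of macrophages, Activated_2 lay between the other activated states. A t-SNE map places cells with like expression near each other. Its distances have no unit, and it rests on the same expression values as the clusters, so the positions are a description. The median position along the second map axis was -0.375 for Activated_1, -11.6 for Activated_2 and -22.5 for Activated_3, and 9.88 to 22.7 for the other 5 states. Of the 30 nearest macrophages of an Activated_2 cell, 81.1% ± 3.52 were Activated_2, 10.2% ± 3.55 Activated_1 and 8.62% ± 3.34 Activated_3 (mean and SD over the 6 NfL libraries). Pooled over all 537 cells, 81.8% were Activated_2, 10.2% Activated_1 and 7.78% Activated_3. Pooled in the same way, Activated_1 cells had 9.47% Activated_2 but 0.444% Activated_3 among their 30 nearest, and Activated_3 cells 7.52% Activated_2 but 0.691% Activated_1. Activated_2 had the lowest share of its own state among the nearest cells of the 8 states, against 86.4% to 97.2% for the others. For 476 of the 537 cells (88.6%) Activated_2 was the most frequent state among the 30 nearest, for 24 it was Activated_1, for 25 Activated_3, for 1 Proliferating, and 11 had a tie. The first of these shares was 87.4% ± 4.61 as a mean over the 6 NfL libraries (SD).

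**Figure D4:**
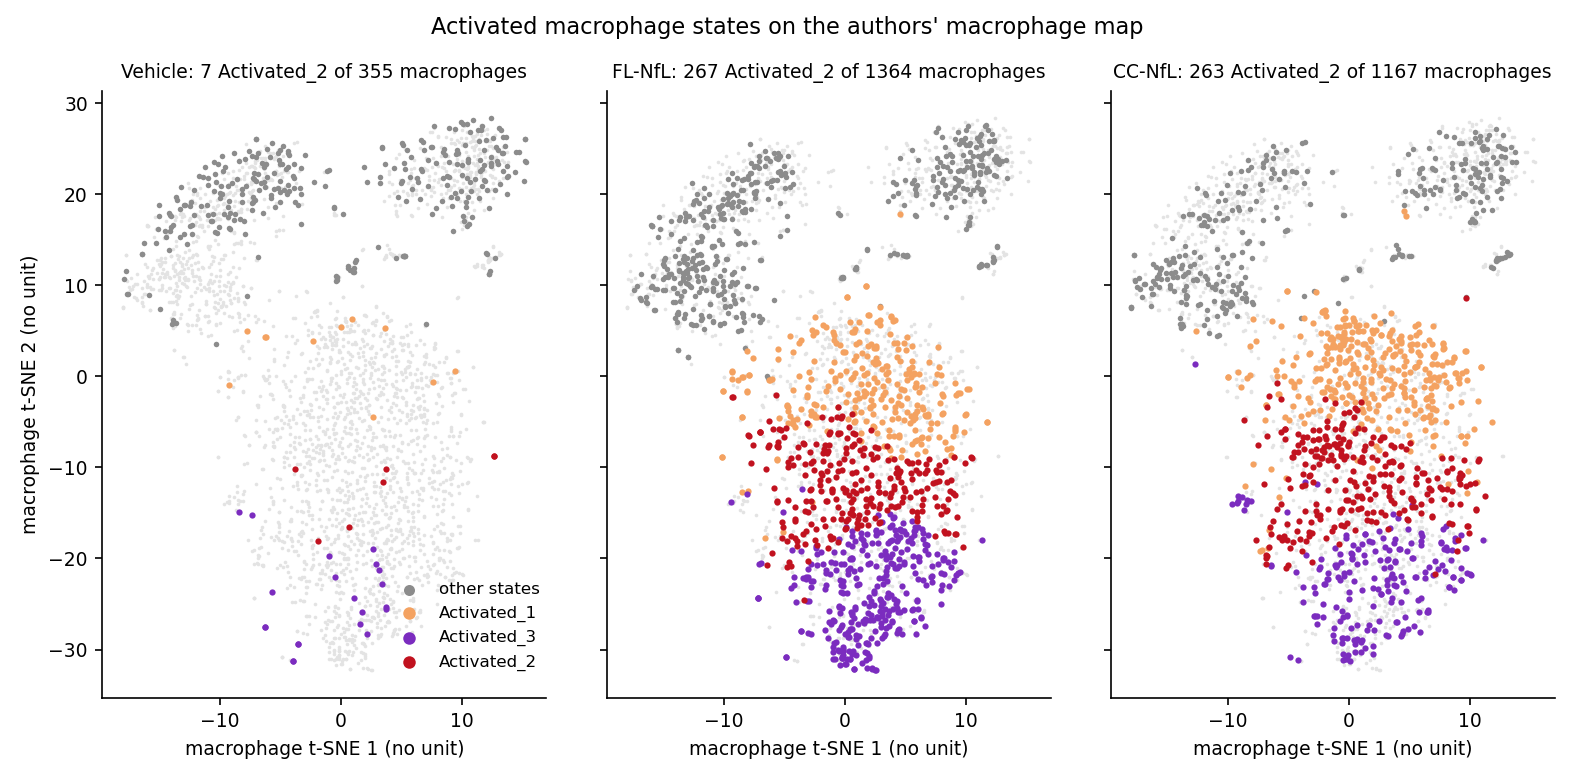
Macrophages on the authors' macrophage t-SNE map, whose axes have no unit, 1 panel per group. Coloured points are activated macrophages of that group, dark grey points its other macrophages, and pale points the macrophages of all groups. Activated_2 cells (red) form a band between Activated_1 (orange) and Activated_3 (purple), with 7 cells in vehicle, 267 in FL-NfL and 263 in CC-NfL mice.

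On the map of all cells the 30 nearest cells of each of the 537 Activated_2 cells were macrophages, with 0 microglia and 0 cells of the class named other immune cells among them. Pooled over cells, 67.6% of the nearest cells there were Activated_2, 16.5% Activated_1 and 15.8% Activated_3. Only annotated cells were searched on that map. Its positions and the classes rest on the same expression values, so neighbours of the same class are no separate evidence of cell type. Of the 7 vehicle cells, the 5 of library 3 had 66.7% to 100% Activated_2 cells among their nearest macrophages, and the 2 of library 2 had as many Activated_1 as Activated_2 cells among theirs.

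The proteins were also compared by the share of Activated_1 and Activated_3 cells near Activated_2 cells. Activated_1 made up 10.9%, 4.36% and 7.81% of the nearest macrophages in the FL-NfL libraries and 14.2%, 12.4% and 11.5% in the CC-NfL libraries. The 3 FL-NfL libraries lay below the 3 CC-NfL libraries, a difference in means of -5.04 percentage points (exact permutation p = 0.1). Since 3 against 3 libraries cannot go below that value, a difference was not shown. For Activated_3 neighbours the values were 6.84%, 13.3% and 8.6% after FL-NfL and 11.6%, 4.14% and 7.26% after CC-NfL, and the groups overlapped (exact permutation p = 0.600). These shares rest on 13 to 219 Activated_2 cells per library. Leaving out each library in turn, the difference in Activated_1 neighbours ran from -5.80 to -3.08 percentage points, and it was closest to 0 without FL-NfL replicate 2.

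**Figure D5:**
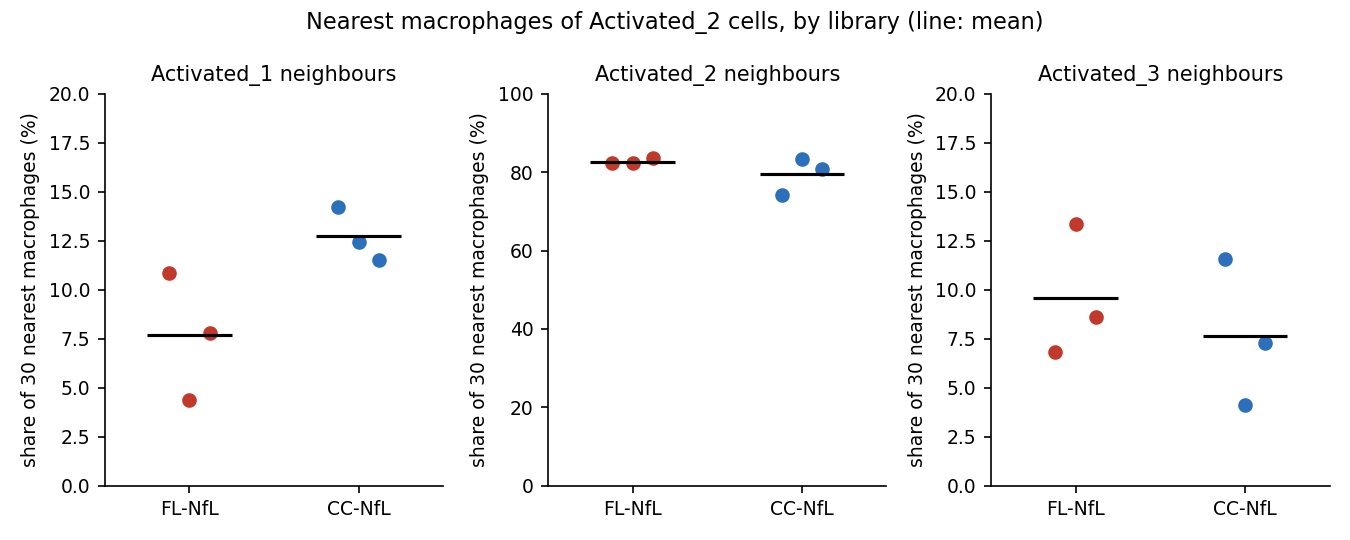
Share of Activated_1, Activated_2 and Activated_3 cells among the 30 nearest macrophages of Activated_2 cells, averaged within each of the 6 NfL libraries (points), with group means (lines). The vertical axis runs to 100% in the middle panel and to 20% in the others. Activated_1 neighbours lie between 4.36% and 10.9% after FL-NfL and between 11.5% and 14.2% after CC-NfL.

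Microglia, the resident macrophages of the brain tissue, also have a state named Activated_2 in the annotation, and the shared name need not mean shared expression. It made up 4.90%, 11.8%, 12.1% and 13.8% of microglia in the vehicle libraries. It made up 21.9%, 22.6% and 16.1% in the FL-NfL libraries and 22.5%, 31.8% and 22.5% in the CC-NfL libraries. The 0 of 62 macrophages in vehicle library 1 have an exact 95% interval up to 5.78%, which includes the microglial 4.90% of that library. The narrower limit of 4.84%, from allowing 3 cells, lies just below that microglial value. In vehicle library 2 the exact intervals of macrophages (0.469% to 13.2%) and microglia (10.0% to 13.7%) overlap. In vehicle libraries 3 and 4 those of macrophages end at 7.66% and 3.93%, below those of microglia, which start at 11.0% and 12.6%. These intervals cover counting error only. The log2 odds ratio of Activated_2 was larger in macrophages than in microglia by 2.21 for both proteins against vehicle (SE 0.88, 95% interval 0.36 to 4.05, limma adjusted p = 0.0324 over the 3 activated states, of which 2, or 66.7%, passed). The difference was 2.29 for FL-NfL (SE 1.03, limma adjusted p = 0.0597) and 2.12 for CC-NfL (SE 1.03, limma adjusted p = 0.0826), where 0 of 3 states passed for each, with 2 and 1 at an unadjusted p under 0.05.

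This difference was not firm. For both proteins together it was 1.64 with 1 added to the counts (adjusted p = 0.0852) and 0.99 in batch b1 alone (adjusted p = 0.616). It missed the threshold without vehicle replicate 1 (2.29, adjusted p = 0.0657), vehicle replicate 3 (2.44, 0.0691), vehicle replicate 4 (1.43, 0.189), FL-NfL replicate 1 (2.13, 0.0704), FL-NfL replicate 3 (1.82, 0.129), CC-NfL replicate 1 (2.12, 0.0710) or CC-NfL replicate 3 (1.86, 0.127), and without the 3 libraries numbered 1 (2.14, 0.182), all by limma. For FL-NfL alone it passed with 0.1 added (3.52, adjusted p = 0.0355), without vehicle replicate 2 (2.93, 0.0172) and without FL-NfL replicate 2 (2.89, 0.0444), and for CC-NfL alone with 0.1 added (3.35, 0.0351) and without vehicle replicate 2 (2.76, 0.0236).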

How the data were processed

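Live-sorted hippocampal cells of 10 mice were profiled with 10x 3′ droplet libraries, dissociated in actinomycin D, a blocker of transcription, per the labels' protocols. Reads went through Cell Ranger 6.0.1 with GRCm38, per the submitters' processing notes. The table deposited by the authors gives a class, state, cluster number and t-SNE position (a score without unit) per barcode. How cells were filtered, clustered and named, and how doublets were treated, is not given in the sources used here. Of 108266 barcodes, 39352 (36.3%) have no annotation and were left out. This loss was uneven, with a larger part lost in each b1 library than in each b2 library. It was largest in FL-NfL library 1 (10506 of 14726 barcodes). The smallest loss in b1 was 2284 of 5434 (FL-NfL library 2), and the largest in b2 3696 of 17837 (CC-NfL library 3). Shares of all annotated cells and values by batch rest on the annotated part only. Shares of macrophages leave out 13 macrophages without a state. The condition and batch written in the table match the labels for each of the 68914 annotated cells. Of 68377 distinct annotated barcodes, 534 occur in more than 1 library.

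Cells were counted per library. Odds of each state, on the log2 scale with 0.5 added to both counts, entered a limma 3.58.1 model (R 4.3.3) of group plus batch across the 10 libraries. States and classes averaging 10 or more cells a library over all 10 libraries were tested, and an adjusted p under 0.05 (Benjamini-Hochberg) was a call. Activated_1, Activated_2, Activated_3 and MHC2_high_2 reached that mean only through the NfL libraries. They held 11, 7, 21 and 18 cells over the 4 vehicle libraries. The set tested thus favours states that rose, and the shares of states called carry this limit. Fits over 3 states pool 18 degrees of freedom over dependent states, so their p-values may be too small. Exact permutation tests are two-sided. Single libraries carry 95% Clopper-Pearson intervals, and a count of 0 allows 3 cells, both for counting error only. The limma step was run on simulated data with pooled state shares, no batch effect and a change in Activated_2 only. Here vehicle libraries held few or no such cells and most states moved, so that run does not vouch for these p-values. The genes named are the 3 linked to the state and each tested state is reported. Activated_2, the comparisons and the lists were chosen with earlier results of these data known.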

Additional observations from a re-analysis of the deposited data

Results flagged for a closer look

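In vehicle library 2 activated macrophages made up 23.1% of macrophages (12 of 52 cells), above the 7.61% to 10.1% of the other 3 vehicle libraries. Its exact 95% interval, 12.5% to 36.8%, overlaps theirs, which reach 17.8%, 16.1% and 15.1% in libraries 1, 3 and 4. Vehicle library 2 held 2 Activated_2 cells. In vehicle library 4, which held 0, macrophages made up 1.05% of annotated cells, below the 1.54% to 1.60% of the others. Each of these values stood far from the rest of its group relative to the range of the group. This held in 2 of 23 sets of vehicle values checked, and chance alone gives about 1 in 20. The sets are not independent, since they are shares of the same vehicle libraries. No vehicle value of Activated_2 itself stood apart in this way.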

How the results depend on the processing

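All 234 alternative estimates of Activated_2 against vehicle in the 4 fits were positive, and of the 132 for its share of macrophages or of all cells 117 stayed on the same side of the threshold. The alternatives are refits of the same 10 libraries with shared vehicle mice, and are not independent of each other. For these 2 shares every NfL library lay above every vehicle library, which leaves little room for a change of sign. The shared sign there is therefore no separate evidence of a rise. Few macrophages in vehicle mice limit every comparison: their 7 Activated_2 cells leave the size of the rise open to the number added to the counts. The causes of the changes below were not tested. The fits without the 3 libraries numbered 1 were chosen after seeing the data.

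As a share of macrophages, the log2 odds ratio was 2.83 (FL-NfL, adjusted p = 0.0800) and 3.07 (CC-NfL, 0.0990) in batch b1 alone. Without the libraries numbered 1 it was 2.90 (FL-NfL, 0.127), 3.35 (CC-NfL, 0.0796) and 3.12 (both, 0.0619). Leaving out 1 library at a time gave 2.86 to 4.26 (FL-NfL), 3.13 to 4.53 (CC-NfL), 2.998 to 4.397 (both) and -0.63 to 0.24 (FL-NfL minus CC-NfL, 0.06 without CC-NfL replicate 3). As a share of all cells it was 3.75 for CC-NfL in b1 alone. The quasi-binomial model gave 5.84 (FL-NfL), 5.45 (CC-NfL) and 5.64 (both), and the arcsine scale a difference of 0.0766 for CC-NfL (adjusted p = 0.0687). Without the libraries numbered 1 it was 4.88 (FL-NfL), 4.96 (CC-NfL) and -0.0857 (FL-NfL minus CC-NfL). Leaving out 1 library at a time gave 4.83 to 6.43 (FL-NfL), 4.08 to 5.71 (CC-NfL), 4.46 to 6.07 (both) and 0.24 to 1.41 (FL-NfL minus CC-NfL). These p-values are limma's.

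Among activated macrophages the same step gave 0.69 to 1.68 (FL-NfL), 0.95 to 1.94 (CC-NfL) and 0.82 to 1.81 (both). There the difference in mean percentage ran from 13.6 to 24.7 points (CC-NfL) and from 11.9 to 23.0 points (both), highest without vehicle replicate 3. For macrophages against microglia it gave 1.51 to 2.93 (FL-NfL), 1.34 to 2.76 (CC-NfL), 1.43 to 2.85 (both) and -0.44 to 0.82 (FL-NfL minus CC-NfL, the negative values being -0.01, -0.43 and -0.44 with FL-NfL replicate 1, FL-NfL replicate 3 or CC-NfL replicate 2 left out). That difference for both proteins was 1.64 with 1 added, 0.99 in b1 alone and 2.14 without the libraries numbered 1. With 0.1 added it was 3.52 (FL-NfL) and 3.35 (CC-NfL).

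Of 6 macrophage states, b1 alone gave 0 calls for FL-NfL, 0 for CC-NfL and 3 for both, and the fit without the libraries numbered 1 gave 2 for each of these. The centred log ratio gave 3 for FL-NfL, and the quasi-binomial model 1 between the proteins. Leaving out 1 library at a time gave 2 to 6 (FL-NfL, lowest when its replicate 3 was left out) and 3 to 6 (CC-NfL, likewise). Of 21 items among all cells, b1 alone gave 2 calls for FL-NfL, 0 for CC-NfL and 2 for both, and the quasi-binomial model 3, 0 and 3. The arcsine scale gave 0 for CC-NfL, and the fit without the libraries numbered 1 gave 3 (FL-NfL) and 2 (CC-NfL). Leaving out 1 library at a time gave 0 to 5 for CC-NfL (lowest when its replicate 3 was left out).

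Libraries that share a number were not paired by the labels. Their deviations correlated from -0.35 to 0.50 over all items, with 6 of 9 pairs over 0.1. Over the 6 macrophage states alone the correlations spread wider, from -0.86 to 0.90, with 5 of 9 pairs over 0.1. In each set 4 of 9 libraries correlated best with their own number. With a replicate block in place of batch the log2 odds ratio was 2.86 (FL-NfL), 3.13 (CC-NfL) and 3.00 (both) of macrophages, and 4.83, 4.10 and 4.46 of all cells, all past the threshold in limma. No other library shares the number of vehicle library 4, which held 0 Activated_2 cells, so its block absorbs it. These estimates therefore rest on the other libraries and are no check separate from leaving out vehicle replicate 4. The replicate block ended 1 call of Activated_2, that of macrophages against microglia for both proteins (1.43, limma adjusted p = 0.206).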
